A study of Schmidtea mediterranea with 64 samples.

Results

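The subject was a set of 132 transcripts that rose late after *set1*(RNAi) in X1 cells of the planarian *Schmidtea mediterranea*, out of 28173 transcript IDs listed in at least 1 of 4 RPKM tables. RPKM is a read count scaled to the length of the transcript in kilobases and to the depth of the library in megareads (M). Members were found among the 12231 IDs whose mean RPKM was 1 or more over the 16 libraries of each X1 table. A change was the mean of log2(RPKM + 0.5) over 4 knockdown libraries minus the mean over the 4 *unc22*(RNAi) libraries of the same day, where 0.5 is a pseudocount. Members were chosen by these measured *set1* changes in X1 cells: a member had a change below 0.4 at day 6 and of 1 or more at day 9. Of the 495 IDs with a day 9 change of 1 or more, the other 363 had already passed 0.4 at day 6 and are called raised early.

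Animals of 4 kinds were compared: *set1*(RNAi) after 6 and 9 days, *mll1/2*(RNAi) after 9 and 12 days, and *unc22*(RNAi) controls for each experiment at its own days. All animals ate liver paste with bacteria that make double-stranded RNA, controls included, so the groups differed in the sequence of that RNA. PolyA RNA was taken from whole worms or from X1 cells sorted after Hoechst staining, with 4 libraries in each of the 16 groups. Replicates are numbered in the labels, but nothing says whether they came from separate animals or sorts, so each p measures the spread between these libraries only. RNA from a mixed population cannot tell fewer cells of a kind from less RNA per cell.

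Set1 and the MLL proteins are histone methyltransferases. They place methyl groups on lysine 4 of histone H3, a mark that lies at the start of active genes, and loss of a writer of this mark is usually discussed in terms of genes that fall. Planarian stem cells, the neoblasts, divide throughout adult life and replace every differentiated cell type. X1 is the flow cytometry gate for cells with replicated DNA, and it is made up mostly of dividing neoblasts. The IDs were used as the tables give them, with no gene name, so the members are described by number, length and level, the X1 gate was not checked against neoblast markers, and reads shared by near-identical transcripts could not be set apart. The column names of the *set1* X1 table show the treatment and the day but not the replicate, and its libraries are called a to d within each group.

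Read totals recovered from the values ranged from 9.5 to 22.51 M per library. In the *mll1/2* X1 table, *unc22*(RNAi) day 12 replicates 2, 3 and 4 stood apart from the other 13 libraries. Their scores on the first principal component, which held 37.1% of the variance, were 49.5, 74.9 and 52.6, against -26.0 to 12.9 for the others. Results at day 12 of that table are given with and without those 3 libraries.

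Both sides of the day 9 comparison moved. The median level of the members in X1 cells was 2.81 RPKM in *unc22*(RNAi) and 3.22 in *set1*(RNAi) at day 6. At day 9 it was 2.07 in *unc22*(RNAi) and 5.42 in *set1*(RNAi). On the log2 scale, *set1*(RNAi) libraries were higher at day 9 than at day 6 for 129 of 132 members, by a median of 0.67. The controls went the other way: *unc22*(RNAi) libraries were lower at day 9 than at day 6 for 116 members, with a median difference of -0.44. Over all 12231 IDs the same 2 medians were -0.05 and -0.03. The fall in controls was larger than the rise after knockdown for 47 members. Since the rule takes IDs with a large difference between those groups, these are descriptions with no test.

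The *set1* changes that chose the members had a median of 0.18 at day 6, from -1.51 to 0.40, and 36 members were below 0 there. At day 9 the median was 1.2 and the range 1.00 to 2.37, with 4 members at 2 or more and 66 below 1.2. For 103 of the 132 members all 4 *set1*(RNAi) libraries lay above all 4 controls at day 9, and the remaining 29 overlapped. That pattern was present in 15.7% of all 13503 IDs tested in the table, and limma called 117 members higher, against 18.0% of all IDs. Both numbers follow from the rule. At day 6 limma called 2 members, where 6.64% of all IDs were called higher. For the *set1* effect at day 9 against that at day 6 it called 48 members higher, against 2.31% of all IDs. That difference is fixed by the rule at over 0.6 for each member, so these counts too are no finding.

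**Figure D1:**
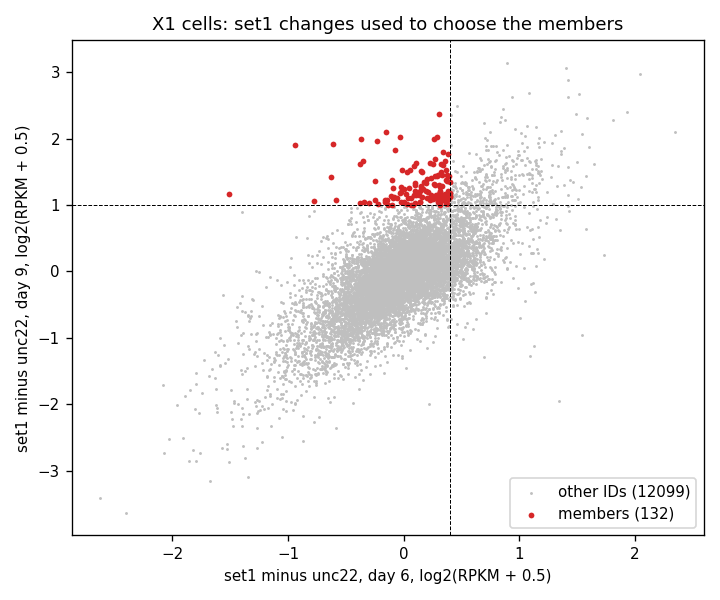
The *set1* minus *unc22* change in X1 cells at day 6 (x) and day 9 (y), in log2(RPKM + 0.5), for the 132 members (red) and the other IDs of the level filter (grey); dashed lines mark the limits 0.4 and 1. The members fill the corner above 1 and left of 0.4, and most of them lie close to the lower limit, with 66 below 1.2.

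The limits cut through a continuous spread. Just inside the day 9 limit were SMED30027692, with a change of 1.001, and SMED30013656, with 1.002. Just outside were SMED30030071 at 0.999 and SMED30019705 at 0.997. At the day 6 limit, SMED30013673 (0.399) and SMED30008323 (0.398) were kept, while SMED30003128 (0.407) and SMED30005192 (0.409) were not. There were 37 members with a day 9 change of 1 to 1.1 and 61 IDs at 0.9 to 1 that missed it.

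Members were short and scarce. Lengths worked out from the values had a median of 573 bases, from 120 to 3292, against 1207 over the 12231 IDs. The median control level at day 9 was 2.07 RPKM against 10.8, and the median number of reads per control library was 23.1 against 265. For 29 members (22.0%) the mean was under 10 reads, against 2.22% of the IDs that passed the level filter. The rule used these day 9 controls, and a lower control gives a larger change, so these values are a description. At day 6 the median control level was 2.81 RPKM against 10.9. The 363 IDs raised early were much like the members, with a median length of 570 bases and a day 9 control level of 2.36 RPKM. Whether low counts had a part in which IDs met the rule was not tested.

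Among the members with the 5 largest day 9 changes, SMED30024954 (458 bases) was the clearest. Its *set1*(RNAi) libraries at day 9 were at 18.1, 19.1, 17.4 and 15.9 RPKM and its controls at 2.17, 5.95, 2.07 and 2.85. The lowest knockdown library was well above the highest control. At day 6 the groups were at 7.66 ± 0.471 and 6.09 ± 0.233 RPKM (SD, n = 4). This transcript also rose in whole worms at day 9, from 24.9 ± 2.30 to 33.0 ± 2.57 RPKM (log2 change 0.40, SE 0.09, adjusted p = 0.00149), but not detectably at day 6 (-0.09, SE 0.09, adjusted p = 0.539).

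SMED30033697 (406 bases) was at 5.23, 5.15, 4.46 and 7.76 RPKM in *set1*(RNAi) X1 cells at day 9 and at 0.611, 1.31, 1.00 and 1.07 in controls, again with no overlap. Its whole-worm change at day 9 was 0.42 (SE 0.21, adjusted p = 0.114). SMED30028151 (404 bases) was at 37.2, 93.7, 81.7 and 65.4 RPKM against 8.72, 13.9, 24.2 and 22.4. Its controls at day 6, at 26.9, 41.5, 23.7 and 45.6 RPKM, were close to or above the day 9 controls, so both sides moved in this transcript too. In whole worms of the *mll1/2* experiment it was lower at day 12, at 188, 116, 169 and 135 RPKM after *mll1/2*(RNAi) against 443, 195, 299 and 238 (change -0.90, SE 0.23, adjusted p = 0.0317). The groups did not overlap, and the call was lost without *mll1/2* replicate 2, 3 or 4 or *unc22* replicate 1 or 3, with adjusted p from 0.0533 to 0.0992.

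The other members with the largest changes varied widely between libraries. SMED30007522 (589 bases) was at 54.8, 194, 172 and 98.4 RPKM after *set1*(RNAi) and at 19.3, 23.2, 57.0 and 23.9 in controls, so 1 control exceeded 1 knockdown library. At day 6 its controls alone ran from 18.5 to 142 RPKM. SMED30012180 (182 bases) was at 0.377, 9.75, 3.80 and 4.95 RPKM against 1.64, 0.651, 0 and 0. The groups overlapped, and the 2 control libraries at 0 held no read.

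The members with the highest level behaved more evenly. SMED30000901 (508 bases) reached 3374, 3222, 2957 and 2774 RPKM in X1 cells after 9 days of *set1*(RNAi), against 1201, 1654, 1543 and 1744 in controls. Day 6 already showed separate groups for it, 2428 ± 106 against 1873 ± 198 RPKM, a change of 0.38, which is just inside the day 6 limit of 0.4. SMED30003686 (870 bases) was at 269, 271, 268 and 302 RPKM against 91.7, 126, 129 and 179. SMED30026933 (315 bases) was at 181, 319.5, 317 and 251 RPKM against 52.3, 99.9, 104 and 95.4, although at day 6 its knockdown mean of 123 ± 34.8 RPKM lay below the control mean of 157 ± 23.4.

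Library medians restate the chosen changes library by library in the *set1* X1 table, where they follow from the rule, and give the members' level in the tables that the rule did not use. Each member was set relative to its own mean over the 16 libraries of a table, and the median over members was taken in each library. In *set1* X1 cells these medians were 0.64 to 0.81 for *set1*(RNAi) at day 9 and -0.61 to -0.47 for the controls of that day. At day 6 they were -0.02 to 0.04 after knockdown and -0.15 to -0.08 in controls. All IDs of the level filter stayed between -0.04 and 0.06 in the same 16 libraries. In *set1* whole worms the members' medians were 0.08 to 0.16 after knockdown and -0.10 to -0.04 in controls at day 9, and those groups did not overlap. Separate groups were not particular to the members. Non-members richer in whole worms by 2 or more were at 0.05 to 0.06 and -0.04 to -0.02. Those richer in X1 cells went the other way, at -0.11 to -0.02 and 0.04 to 0.09.

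**Figure D2:**
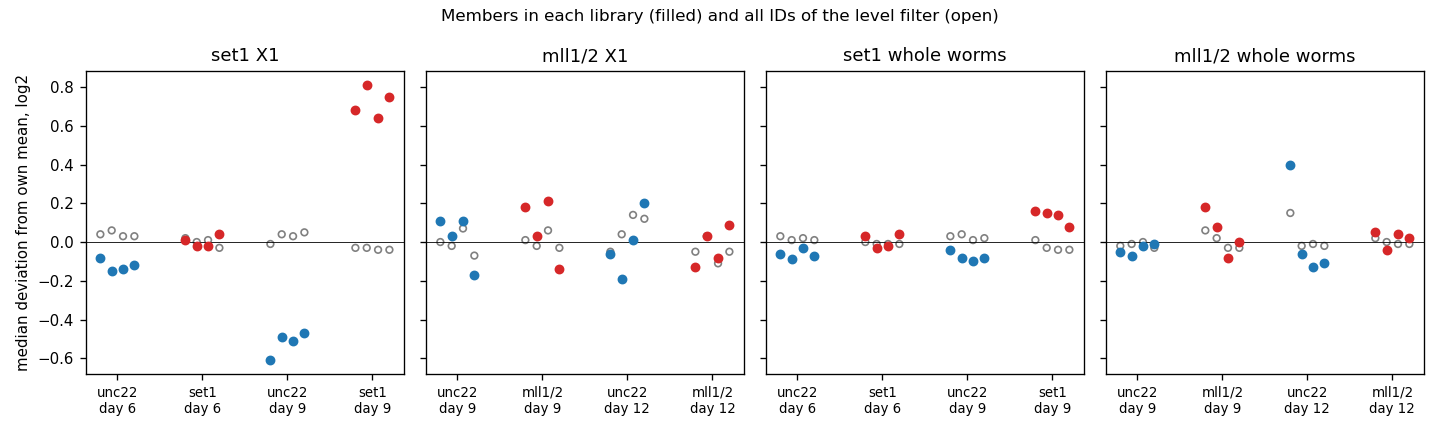
Median deviation of the members (filled; blue *unc22*, red knockdown) and of all IDs of the level filter (open) from their own mean over the 16 libraries of each table, log2, with 1 point per library. The *set1* X1 libraries of day 9 sit at 0.64 to 0.81 against -0.61 to -0.47 in controls, the *set1* whole-worm libraries of day 9 at 0.08 to 0.16 against -0.10 to -0.04, and the *mll1/2* groups overlap.

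A property that the rule did not use was where the members are abundant. In *unc22*(RNAi) controls of the *mll1/2* experiment at day 9, 119 members were listed in both whole worms and X1 cells. Their whole-worm level exceeded the X1 level by a median of 1.72 on the log2 scale (quartiles -0.98 and 4.75), against -0.09 for the 11996 level-filter IDs listed in both. A difference of 4 or more was present in 36 of the 119 (30.3%) and in 4.67% of those IDs. Of the IDs raised early, 318 were listed in both, with a median of -0.04, and 69 of them (21.7%) were at 4 or more. A high share at 4 or more was thus not particular to the members. Members were also scarcer in X1 controls than the level-filter IDs, and the comparison was not matched for level. Transcripts of opposite kinds made up most of the set: 58 members were whole-worm-rich, with a difference of 2 or more, and 43 were X1-rich, below 0. The limits of these classes were chosen after the values were seen, and the levels come from tables that were normalized separately.

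**Figure D3:**
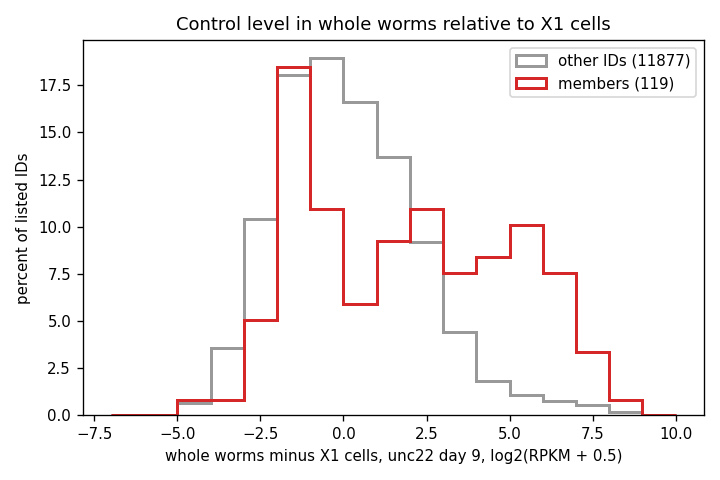
Level in whole worms minus level in X1 cells in *unc22*(RNAi) day 9 controls of the *mll1/2* experiment, log2(RPKM + 0.5), as percent of listed IDs in bins of width 1. Members (red, 119) reach from -4.23 to 8.01 with a median of 1.72; other IDs of the level filter (grey) centre near 0.

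Both classes moved in the X1 libraries at day 9. The library medians of whole-worm-rich members were 0.57 to 0.85 after *set1*(RNAi) and -0.66 to -0.49 in controls, and those of X1-rich members were 0.50 to 0.82 and -0.56 to -0.48. The 2142 whole-worm-rich IDs that were not members were at -0.03 to 0.13 after *set1*(RNAi) and at -0.26 to 0.15 in controls of that day. Those IDs are non-members because they did not meet the rule, so the values are a description only. From day 6 to day 9 the controls differed by a median of -0.62 for the 58 whole-worm-rich members and of -0.29 for the 43 X1-rich members. SMED30007522 is an example of the first class, at 3605, 3310, 3499 and 4381 RPKM in whole-worm controls and 17.2, 3.72, 17.5 and 42.6 in X1 controls. SMED30003686 is an example of the second, at 4.11, 4.68, 6.21 and 5.58 RPKM in whole worms and 135, 171, 74.0 and 68.9 in X1 cells.

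Spread between X1 libraries differed by class and by group. Among the 4 *unc22*(RNAi) day 9 libraries the median coefficient of variation was 42.4% for whole-worm-rich members, 30.8% for X1-rich members and 27.4% for other whole-worm-rich IDs. It was highest, at 64.9%, for the 13 scarce members not listed in whole worms. In the *set1*(RNAi) day 6 libraries whole-worm-rich and X1-rich members were alike, at 26.5% and 26.1%. Library a was the lowest of the *set1*(RNAi) day 9 libraries for 25 of the 58 whole-worm-rich members (43.1%), SMED30007522, SMED30028151 and SMED30012180 included, and for 27.0% of the other whole-worm-rich IDs. Library c was the lowest for 26 of the 43 X1-rich members (60.5%) and for 51.5% of the other X1-rich IDs. The part of these libraries in the members' values was not tested beyond leaving each out.

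Whole worms tested the same knockdown in RNA that the rule did not use. There 91 members had a mean RPKM of 1 or more and entered the fit, 28 were listed below that level and 13 were not listed. After 9 days of *set1*(RNAi), 42 of the 91 were called higher (46.2%) and 5 lower (5.49%), against 19.2% and 22.9% of all 19655 IDs tested. With median scaling, 50 members were higher and 4 lower, but the shares over all IDs turned over, to 28.0% higher and 17.4% lower. Among tested IDs that met the level filter of the rule the shares were 18.3% and 31.8%. The changes were small, with a median of 0.18 and a range of -1.47 to 1.54, and 69 of 91 were above 0. All 4 knockdown libraries lay above all 4 controls for 36 members, a pattern found in 16.8% of all IDs. When each of the 8 libraries was left out in turn, 33 of the 42 rises and the 5 falls were called every time.

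A member near the filter could pass it through the knockdown libraries alone. With the filter set on the *unc22*(RNAi) libraries, 88 members entered, of which 40 were higher (45.5%) and 5 lower. With no filter, 45 of the 119 listed members were higher (37.8%), against 14.8% of all IDs listed. By class, 26 of the 58 whole-worm-rich members were higher (44.8%), close to the 41.5% of other whole-worm-rich IDs of the level filter, and 5 were lower (8.62% against 16.4%). Of the X1-rich members, 11 of the 15 that entered the fit were higher (73.3%), against 8.2% of other X1-rich IDs. The other 28 X1-rich members did not enter it. Among the 15, SMED30003916, SMED30013154 and SMED30014993 met the filter only with their knockdown libraries. Their control means at days 6 and 9 were 0.665 and 1.04, 0.906 and 0.899, and 1.15 and 0.778 RPKM. Shares by class with the filter on controls were not worked out. The 46.2% over all members is therefore near the share of like transcripts for the 58 that are whole-worm-rich. For the 15 that are X1-rich it is above the share of like transcripts, with the limit that some of them entered through their knockdown libraries. For comparison, the IDs raised early were called higher in 110 of 225 cases (48.9%) and lower in 13.

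**Figure D4:**
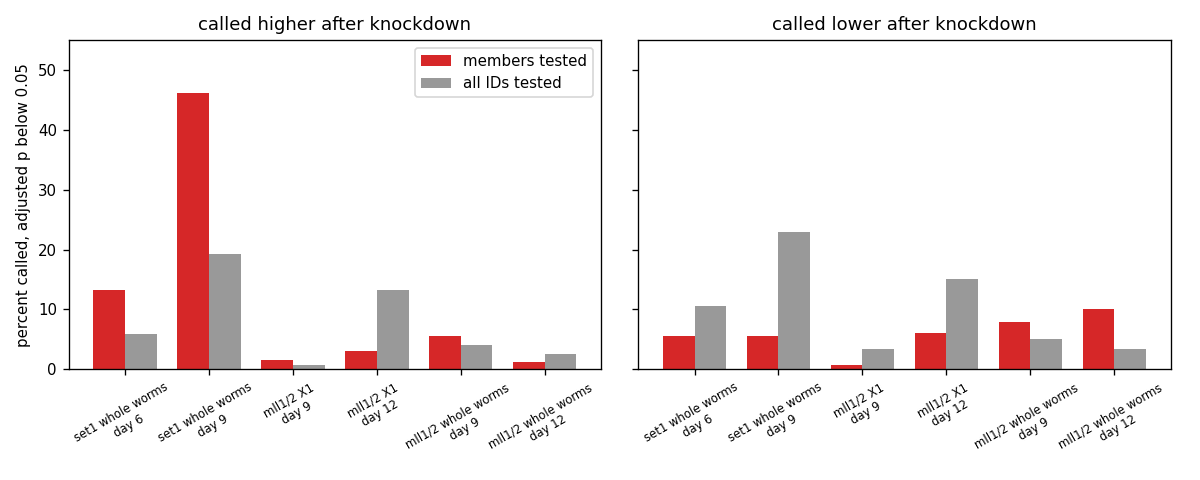
Percent of members tested (red) and of all IDs tested (grey) called higher (left) and lower (right) at an adjusted p below 0.05 by limma in the 6 comparisons that the rule did not use. In *set1* whole worms at day 9 the members were at 46.2% higher against 19.2%; in the 4 *mll1/2* comparisons members and all IDs were at or below 15.1% in either direction.

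At day 6 fewer of the members had moved in whole worms. Of the 91, 12 were called higher (13.2%) and 5 lower, against 5.91% and 10.6% of all IDs, with a median change of 0.07. With median scaling 18 were higher and 4 lower, against 11.9% and 7.19% of all IDs, and with quantile normalisation 12 and 4, against 8.45% and 9.59%. The 58 whole-worm-rich members held 8 of the 12 rises (13.8%), below the 16.4% of other whole-worm-rich IDs, and the 15 X1-rich members held 4 (26.7%), against 3.12% of other X1-rich IDs. The IDs raised early were higher in 63 of 225 cases (28.0%) at that day. Of these 12 members, 11 were called higher at day 9 as well. How many of all IDs were called higher on both days was not counted. The test of the difference between days called the *set1* effect higher at day 9 for 12 members (13.2%) and lower for 4, against 3.14% and 5.25% of all IDs. The IDs raised early were higher by that test in 32 of 225 cases (14.2%) and lower in 5, so the share was not particular to the members. The whole-worm-rich members held 10 of the 12 (17.2%), against 8.64% of other whole-worm-rich IDs. The X1-rich members held 2 (13.3%), against 1.41% of other X1-rich IDs.

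SMED30026445 (1004 bases) showed the largest rise in whole worms and is an X1-rich transcript. At day 9 it was at 29.0, 28.1, 26.2 and 24.8 RPKM after *set1*(RNAi) and at 8.99, 9.39, 9.71 and 7.79 in controls, a change of 1.54 (SE 0.09, adjusted p = 1.2e-09). At day 6 the groups were at 18.4 ± 2.92 and 13 ± 0.848 RPKM (change 0.47, SE 0.09, adjusted p = 0.00205), and the effect grew between the days by 1.07 (SE 0.13, adjusted p = 9.63e-05). In X1 cells it was at 62.0 ± 7.50 RPKM after knockdown and 60.7 ± 10.5 in controls at day 6, and those groups overlapped. The rule took only IDs with a small X1 change at day 6, so no order between the 2 materials can be read from this. At day 9 its X1 libraries were at 125, 128, 124 and 117 RPKM against 44.6, 55.9, 54.8 and 76.8.

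SMED30027500 (671 bases), a whole-worm-rich transcript, was at 266, 309.7, 232 and 194 RPKM in whole worms after 9 days of *set1*(RNAi) and at 128, 138, 114 and 114 in controls (change 1.00, SE 0.15, adjusted p = 2.77e-05). In X1 cells the same transcript was at 5.11 ± 1.37 against 2.08 ± 0.477 RPKM. SMED30014993 (416 bases), an X1-rich transcript, was at 2.23, 1.95, 1.36 and 1.65 RPKM in whole worms against 0.575, 0.970, 0.910 and 0.657 (change 0.84, SE 0.21, adjusted p = 0.00363). Its whole-worm control means were 1.15 RPKM at day 6 and 0.778 at day 9. It met the filter of 1 RPKM only with its knockdown libraries, so this call is a description. Its X1 libraries at day 9 were at 22.8 ± 2.10 against 9.57 ± 0.879 RPKM. In each of these transcripts the 4 knockdown libraries were above the 4 controls in both materials.

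At day 6 the largest whole-worm rises beside SMED30026445 were small and less certain. SMED30029590 (460 bases) was at 2.85, 3.22, 3.91 and 2.17 RPKM against 1.68, 1.24, 2.10 and 2.58, groups that overlapped (change 0.57, SE 0.19, adjusted p = 0.0476). Its call was lost without *set1* or *unc22* replicate 1, 2 or 3, with adjusted p from 0.0618 to 0.151. SMED30032811 (723 bases) was at 4.97, 3.78, 4.55 and 3.78 RPKM against 3.07, 2.49, 3.63 and 2.84 (change 0.45, SE 0.12, adjusted p = 0.0207). Its call was lost without *set1* replicate 1 or 3 or *unc22* replicate 2 or 4, with adjusted p from 0.0503 to 0.0697. At day 9 SMED30032811 was at 4.97 ± 0.551 against 2.71 ± 0.522 RPKM (change 0.78, SE 0.12, adjusted p = 7.31e-05).

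A group of 4 members went in opposite directions in the 2 materials: they were lower in whole worms on both days after *set1*(RNAi). All are whole-worm-rich, and the effect of each was lower at day 9 than at day 6 by the test of that difference. Their rise in X1 cells follows from the rule. On each day 5.49% of the members tested were lower, against 10.6% of all IDs at day 6 and 22.9% at day 9. Of the whole-worm-rich members 8.62% were lower on each day, against 6.16% and 16.4% of other whole-worm-rich IDs. How many of all IDs were lower on both days was not counted. SMED30024144 (467 bases) fell the furthest. Its whole-worm libraries at day 9 were at 5.71, 5.20, 4.84 and 3.95 RPKM after knockdown and at 17.3, 14.4, 16.2 and 10.9 in controls (change -1.47, SE 0.12, adjusted p = 4.11e-08). At day 6 the change was -0.48 (SE 0.12, adjusted p = 0.0114). In X1 cells at day 9 the same transcript was at 4.55, 4.61, 4.79 and 5.65 RPKM after knockdown and 1.38, 2.28, 2.32 and 1.86 in controls. Neither pair of groups overlapped, and the knockdown levels lay in the same range in both materials, though the tables were normalized separately.

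SMED30028249 (513 bases) was at 14.8, 11.3, 12.9 and 13.5 RPKM in whole worms at day 9 against 29.4, 31.1, 29.1 and 31.1 (change -1.18, SE 0.07, adjusted p = 9.88e-10), and at 21.1 ± 1.40 against 31.2 ± 2.01 at day 6 (change -0.56, SE 0.07, adjusted p = 3.29e-05). Its X1 libraries at day 9 were at 3.74, 4.32, 3.43 and 4.26 RPKM against 0.968, 2.42, 0.132 and 2.30. SMED30008921 (506 bases) was at 27.4, 30.2, 24.9 and 26.2 RPKM in whole worms at day 9 against 48.0, 49.5, 46.7 and 49.5 (change -0.83, SE 0.06, adjusted p = 1.08e-08). At day 6 its change was -0.35 (SE 0.06, adjusted p = 0.00069). The fourth, SMED30002513 (2137 bases), was chosen after its values were seen: it was at 64.8 ± 4.42 against 91.6 ± 1.62 RPKM in whole worms at day 9 (change -0.50, SE 0.05, adjusted p = 7.06e-07) and at 9.15 ± 0.608 against 3.61 ± 0.611 RPKM in X1 cells.

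**Figure D5:**
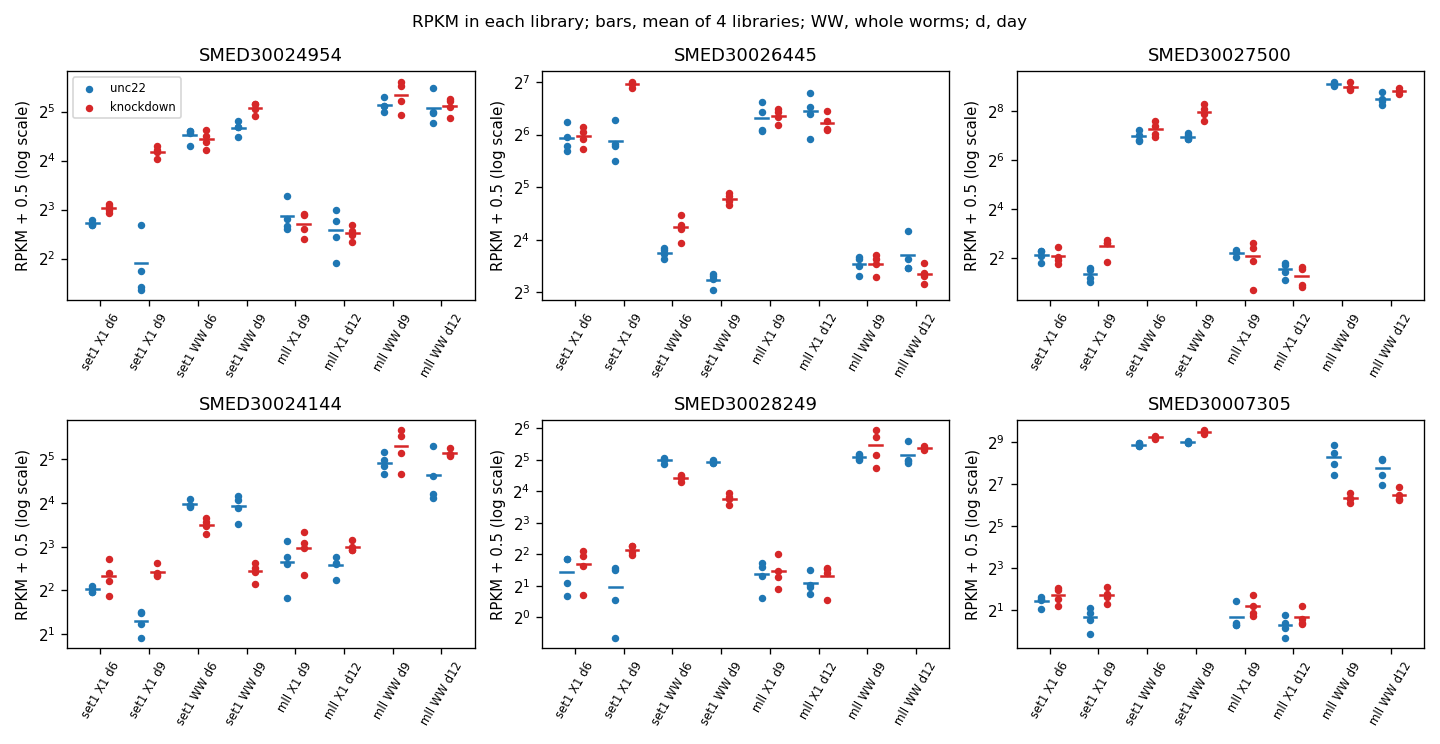
RPKM + 0.5 on a log scale for 6 members in each library of the 8 comparisons (blue *unc22*, red knockdown; bars, mean of 4). SMED30024954, SMED30026445 and SMED30027500 rise in X1 cells and whole worms at day 9 after *set1*(RNAi), SMED30024144 and SMED30028249 rise in X1 cells and fall in whole worms, and SMED30007305 falls in whole worms after *mll1/2*(RNAi).

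The second knockdown, *mll1/2*(RNAi), asked whether the members respond to the loss of a related enzyme. In X1 cells at day 9, limma called 2 of the 132 members higher and 1 lower, against 0.663% and 3.35% of all 12525 IDs tested. The median change was 0.02, and 13 members had an unadjusted p below 0.05. At day 12 it called 4 higher and 8 lower, against 13.2% and 15.1% of all IDs, so the members' shares of 3.03% and 6.06% were below the background in both directions. Members were scarcer in X1 controls than the level-filter IDs, and these shares were not matched for level. The median change at day 12 was 0.03, against -0.13 over all IDs, and 25 members had an unadjusted p below 0.05. With the filter set on the *unc22*(RNAi) libraries, 127 members entered. At day 9, 1 of them was higher and 1 lower, against 0.613% and 3.43% of all IDs. At day 12, 3 were higher and 8 lower, against 12.7% and 15.5%. Without the 3 control libraries that stood apart, which leaves 1 control whose spread is taken from the other groups, 5 were higher and 4 lower at day 12, with a median of 0.132, against 6.4% and 3.94% of all IDs in the same fit. At day 9 that fit called 4 higher and 2 lower, against 1.56% and 4.02%. The distance from the background at day 12 was thus large only with the libraries that stood apart.

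SMED30022570 (1157 bases) was the 1 member called lower in X1 cells on both days. At day 9 it was at 1.55, 1.99, 2.47 and 1.72 RPKM after *mll1/2*(RNAi) and at 4.38, 4.98, 5.44 and 3.41 in controls (change -1.05, SE 0.19, adjusted p = 0.00231). At day 12 it was at 1.79, 1.72, 1.51 and 2.01 RPKM against 4.26, 5.52, 6.76 and 6.57 (change -1.46, SE 0.19, adjusted p = 3.4e-05), and without the 3 libraries that stood apart the change was -1.08 (adjusted p = 0.0275). The groups did not overlap on either day. After *set1*(RNAi) the same transcript went the other way in X1 cells, at 8.12, 10.3, 7.87 and 6.72 RPKM against 3.13, 3.79, 3.93 and 3.38 at day 9. In whole worms it changed by 0.10 (SE 0.06, adjusted p = 0.165) after *set1*(RNAi) and by -0.06 (SE 0.14, adjusted p = 0.845) after *mll1/2*(RNAi) at day 9.

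The 2 rises at day 9 were of scarce transcripts. SMED30014054 (375 bases) was at 2.16, 1.17, 1.41 and 2.77 RPKM against 0.482, 0.975, 0.525 and 0.397 (change 1.1, SE 0.26, adjusted p = 0.0231). Its X1 control means were 0.595 RPKM at day 9 and 0.883 at day 12. It met the filter of 1 RPKM only with its knockdown libraries, so this call is a description. The call was lost without *mll1/2* replicate 1 or 4 or *unc22* replicate 1, 3 or 4, with adjusted p from 0.0556 to 0.0906. SMED30008416 (1074 bases) was at 1.42, 2.35, 1.38 and 2.42 RPKM against 1.01, 1.28, 0.549 and 0.623 (change 0.81, SE 0.22, adjusted p = 0.0499). That call was lost without any single library but *mll1/2* replicate 3 or *unc22* replicate 2, with adjusted p from 0.0536 to 0.165, and it was just lost (adjusted p = 0.0509) without the 3 day 12 controls that stood apart. At day 12 the changes of SMED30014054 and SMED30008416 were 0.13 (SE 0.26) and 0.09 (SE 0.22).

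At day 12 SMED30004216, the longest member at 3292 bases, was at 1.75, 2.29, 2.55 and 2.54 RPKM in X1 cells after *mll1/2*(RNAi) and at 0.841, 0.485, 0.661 and 0.730 in controls (change 1.24, SE 0.19, adjusted p = 0.00015). With X1 control means of 1.12 RPKM at day 9 and 0.679 at day 12, it too met the filter of 1 RPKM only with its knockdown libraries. This rise is therefore a description as well. Without the 3 control libraries the change of SMED30004216 was 1.04. In whole worms of the same experiment it was lower at day 9, at 34.1 ± 4.97 against 55.2 ± 11.0 RPKM (change -0.68, SE 0.20, adjusted p = 0.0421), and 6 of the 8 libraries were each needed for that call, with adjusted p from 0.0801 to 0.154 when 1 of them (*mll1/2* replicate 2, 3 or 4 or *unc22* replicate 1, 2 or 3) was left out.

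SMED30017907 (532 bases) was at 4.25, 3.41, 6.56 and 5.61 RPKM against 2.44, 1.59, 2.05 and 1.32 (change 1.2, SE 0.29, adjusted p = 0.0048), and at 0.86 (adjusted p = 0.229) without the 3 control libraries. SMED30004323 (454 bases) was lower, at 0.207, 0.399, 1.28 and 0.913 RPKM against 2.86, 1.24, 1.74 and 3.31, with 1 knockdown library above the lowest control (change -1.24, SE 0.30, adjusted p = 0.00557), and at -1.58 (adjusted p = 0.038) without them. SMED30004323 and SMED30018258 (410 bases) met the filter of 1 RPKM only with their *unc22*(RNAi) day 12 libraries, so both calls are descriptions. Their means in those libraries were 2.29 and 2.14 RPKM, against 0.700 to 1.23 and 0.694 to 0.921 in the other groups. SMED30018258 was at 0.919, 0.442, 0.405 and 1.01 RPKM against 2.32, 1.60, 1.45 and 3.17 (change -1.13, SE 0.35, adjusted p = 0.024). Its call was lost without *mll1/2* replicate 2 or 3 or *unc22* replicate 4 (adjusted p from 0.0608 to 0.0881) and without the 3 control libraries (-1.28, adjusted p = 0.155).

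The largest fitted change at day 12 belonged to the shortest member and did not hold. SMED30004569, of 120 bases, was at 1.57, 7.55, 11.1 and 9.67 RPKM after *mll1/2*(RNAi) and at 8.66, 0, 0 and 0 in controls (change 2.69, SE 0.91, adjusted p = 0.0347). The 3 controls at 0 were the libraries that stood apart, and without them the change was -0.46 (adjusted p = 0.818). Leaving out any 1 of them, or *mll1/2* replicate 2, 3 or 4, gave adjusted p from 0.0677 to 0.107.

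In whole worms after *mll1/2*(RNAi), 89 members entered the fit. At day 9, 5 were higher and 7 lower (5.62% and 7.87%), against 4.01% and 5.06% of all 18443 IDs. At day 12, 1 was higher and 9 lower (1.12% and 10.1%), against 2.57% and 3.35%. The 7 and the 9 that were lower were whole-worm-rich members, 12.1% and 15.5% of that class. Of other whole-worm-rich IDs, 9.29% were lower at day 9, close to the members' share, and 4.58% at day 12. With the replicate number as a block, 6 members were higher and 14 lower at day 9, against 5.85% and 7.43% of all IDs, and 5 were higher and 16 lower at day 12, against 6.01% and 7.34%. With quantile normalisation 12 were higher and 10 lower at day 9 (5.08% and 6.08% of all IDs) and 7 and 11 at day 12 (2.64% and 4.49%). Median scaling left 9 lower and none higher at day 12, against 3.73% and 1.49% of all IDs. The counts without the block leaned on single libraries. The block was not combined with leaving out a library. Values and lost calls of single members below are from the fit without the block, so they leave the pairing out. At day 9 the 12 calls became 7 without *mll1/2* replicate 1, 5 without its replicate 2, 3 without *unc22* replicate 1 and 4 without *unc22* replicate 2. At day 12 the 10 calls became 2, 1 and 2 without *mll1/2* replicates 2, 3 and 4, and 6 and 3 without *unc22* replicates 2 and 3.

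SMED30007305 (989 bases) fell the furthest. At day 9 it was at 94.7, 80.5, 68.5 and 77.9 RPKM after *mll1/2*(RNAi) and at 455, 356, 245 and 174 in controls (change -1.85, SE 0.29, adjusted p = 0.00174). The controls spread widely, yet the lowest was above the highest knockdown library. At day 12 the groups were at 89.4 ± 17.5 and 218 ± 84.5 RPKM (change -1.21, SE 0.29, adjusted p = 0.0253). That second call was lost without *mll1/2* replicate 2, 3 or 4 or *unc22* replicate 1 or 2, with adjusted p from 0.0502 to 0.0855. After *set1*(RNAi) the same transcript rose in whole worms on both days, to 594 ± 27.6 from 468 ± 24.6 RPKM at day 6 (change 0.34, SE 0.05, adjusted p = 7.27e-05) and to 718 ± 35.0 from 503 ± 13.3 at day 9 (change 0.51, SE 0.05, adjusted p = 1.16e-07).

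SMED30035609 (1185 bases) had the same signs at a higher level. After 9 days of *mll1/2*(RNAi) it was at 1350, 1012, 869 and 884 RPKM in whole worms against 3273, 2654, 2330 and 1716 (change -1.26, SE 0.25, adjusted p = 0.00641). After 9 days of *set1*(RNAi) it was at 4062, 3562, 3632 and 3634 RPKM against 3230, 3067, 3227 and 3059 (change 0.24, SE 0.06, adjusted p = 0.00543). Neither pair of groups overlapped. In all, 6 members were higher in whole worms at day 9 of *set1*(RNAi) and lower on at least 1 day of *mll1/2*(RNAi). The others were SMED30002567, SMED30007970, SMED30013245 and SMED30035769, the last 3 of which were chosen after their values were seen. How many of all IDs had the same pair of calls was not counted, so the 6 are a description. Taken singly, 19.2% of all IDs were higher at day 9 of *set1*(RNAi). After *mll1/2*(RNAi), 5.06% were lower at day 9 and 3.35% at day 12. Most of these pairs of calls leaned on single libraries. The *set1* rises of SMED30002567 and SMED30013245 were each lost without *set1* replicate 1 or 2 or *unc22* replicate 1, 3 or 4 (adjusted p up to 0.158 and 0.141). The *mll1/2* fall of SMED30007970 at day 9 was lost without any *mll1/2* library or *unc22* replicate 1 or 2 (adjusted p up to 0.181), and that of SMED30035769 at day 12 without *mll1/2* replicate 2, 3 or 4 or *unc22* replicate 1, 2 or 3 (adjusted p up to 0.143). The falls of SMED30013245 were lost at day 9 without *mll1/2* replicate 4 or *unc22* replicate 1 or 2 (adjusted p up to 0.0898) and at day 12 without *mll1/2* replicate 3 (0.0558).

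Of the other named whole-worm falls at day 9, SMED30002567 (436 bases) was at 51.3, 33.8, 27.5 and 17.9 RPKM against 71.0, 55.6, 56.0 and 46.3, groups that overlapped (change -0.89, SE 0.26, adjusted p = 0.0427). Its call was lost without *mll1/2* replicate 2, 3 or 4 or *unc22* replicate 1, 2 or 3 (adjusted p from 0.071 to 0.152). At day 12 SMED30013673 (512 bases) was at 209, 179, 237 and 156 RPKM against 866, 315, 422 and 564 (change -1.38, SE 0.35, adjusted p = 0.0325), with no overlap. That call needed each library but *unc22* replicates 2 and 4 (adjusted p from 0.0527 to 0.103). SMED30011307 (304 bases) was at 246, 128, 185 and 121 RPKM against 708, 234, 411 and 300.3, with overlap (change -1.21, SE 0.31, adjusted p = 0.0341), and the call was lost without *mll1/2* replicate 2, 3 or 4 or *unc22* replicate 1 or 3 (adjusted p from 0.0593 to 0.113).

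The called whole-worm rises after *mll1/2*(RNAi) were of at most 0.49 on the log2 scale. SMED30031956 (812 bases) was the firmest, at 8.87, 9.10, 6.78 and 7.34 RPKM at day 9 against 5.24, 5.12, 5.76 and 5.98 (change 0.49, SE 0.11, adjusted p = 0.00927). SMED30026072 (451 bases) was at 43.3 ± 4.07 against 30.8 ± 1.85 RPKM (change 0.48, SE 0.14, adjusted p = 0.0435), and only *mll1/2* replicate 3 could be left out without losing the call (adjusted p from 0.054 to 0.131). SMED30018145 (467 bases) was at 176 ± 32.3 against 127 ± 12.9 RPKM (change 0.45, SE 0.13, adjusted p = 0.0466), a call that held only without *mll1/2* or *unc22* replicate 3 (adjusted p otherwise from 0.0704 to 0.151). At day 12 SMED30030069 (1305 bases) was at 12.8, 13, 13.4 and 12.4 RPKM against 9.15, 9.28, 9.94 and 10.9 (change 0.38, SE 0.09, adjusted p = 0.0293), and its call was lost without any *mll1/2* library or *unc22* replicate 2 or 3 (adjusted p from 0.0525 to 0.0909).

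The most abundant member, SMED30000901, was called higher in whole worms on both days of *set1*(RNAi), at 1034 ± 79.9 against 815 ± 45.5 RPKM at day 6 (adjusted p = 0.00136) and 1141 ± 94.1 against 860.3 ± 42.2 at day 9 (adjusted p = 6.89e-05). After *mll1/2*(RNAi) its 4 changes lay between -0.03 and 0.05 with SE of 0.11 in X1 cells and 0.18 in whole worms.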

How the data were processed

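The authors deposited RPKM values in 4 tables, 1 for each experiment and material, with 16 libraries each and 64 in all. Per the labels, CASAVA 1.8.2, Bowtie and edgeR were used. For their roles, the transcriptome and filtering, the sources used here give nothing. RPKM values were whole multiples of a step per library and transcript length, which gave lengths and reads within 0.01 of a whole number. RPKM removes length and depth but not the scarcity of reads for low transcripts, and the pseudocount of 0.5 shrinks their changes.

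Each table was fitted with limma 3.58.1 in R 4.3.3 on log2(RPKM + 0.5), with a mean per group, all 16 libraries and a variance trend. IDs with a mean RPKM of 1 or more were tested and p-values adjusted by Benjamini-Hochberg over them; calls were at an adjusted p below 0.05. The script was tested on simulated data.

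The members, the rule and the lists were chosen with earlier results of these data known. Members were named as the 5 largest day 9 changes, the 3 highest levels, and 2 on either side of each limit. Up to 3 largest called rises and falls in each comparison outside the rule were named too. Any other is said to be chosen after its values were seen. SMED30003916 and SMED30013154, named for how they met the filter in whole worms, were also chosen after their values were seen. Pairing by replicate number was checked by correlating deviations from group means: in *mll1/2* whole worms at day 12 the 4 pairs were at 0.17 to 0.407, and elsewhere at least 1 pair was under 0.1. In that table replicate 1 was highest and replicate 4 lowest on the first principal component (34.2% of the variance) in all 4 groups, day 9 included, so blocked counts are given for both days.

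Alternatives were pseudocounts of 0.1 and 1, no filter or a minimum of 2 RPKM, median scaling, quantile normalisation, removal of a length trend, voom on the recovered reads, a replicate block and leaving out each library. Leaving out the 3 control libraries that stood apart was added after the data were seen. No reference sequence or gene name was used here, so no cell type marker list could be applied.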

Additional observations from a re-analysis of the deposited data

Results flagged for a closer look

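Among 102 groups of 4 libraries examined, 6 held a value far from the other 3, where chance gives about 1 in 20. The median deviation of the members was 0.40 in *mll1/2* whole-worm *unc22*(RNAi) day 12 replicate 1, against -0.13 to -0.06 in the other 3 controls, and it was 0.15 there over all IDs of the level filter. SMED30003686 was at 302 RPKM in library d of *set1*(RNAi) X1 cells at day 9. SMED30004569 was at 8.66 RPKM in 1 X1 control at day 12 of the *mll1/2* experiment and at 0 in the other 3. SMED30007522 was at 57.0 RPKM in library c of the X1 day 9 controls, SMED30008323 at 5.28 in library b of *set1*(RNAi) X1 cells at day 9, and SMED30026933 was low, at 52.3, in library a of the X1 day 9 controls.

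The *set1* effect in whole worms differed between day 6 and day 9 by limma's test of that difference for 12 members that were higher at day 9 and 4 that were lower. Of the 91 members tested 13.2% were higher, against 14.2% of the IDs raised early and 3.14% of all IDs. Among the named members the differences (day 9 minus day 6, log2) were 1.07 for SMED30026445, 0.72 for SMED30027500, -0.48 for SMED30008921, -0.62 for SMED30028249 and -1.0 for SMED30024144. Of the 16 calls, 9 were made when each of the 16 libraries was left out in turn.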

How the results depend on the processing

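Counts for *set1* in whole worms at day 6, at day 9 and between the days stayed within 1.5 times under every alternative. Leaving out 1 library gave 12 to 19 members called at day 6, 41 to 48 at day 9 and 11 to 16 between the days. It gave 1 to 4 for *mll1/2* X1 cells at day 9, 6 to 20 at day 12, 3 to 13 for *mll1/2* whole worms at day 9 and 1 to 13 at day 12, and 120 to 163 IDs that met the rule. For *mll1/2* X1 cells at day 9 the 3 calls became 1 with a minimum of 2 RPKM, 1 with voom and 6 without the 3 control libraries that stood apart. At day 12 the 12 calls became 6 with no filter and 7 with a minimum of 2 RPKM. For *mll1/2* whole worms at day 9 the 12 calls became 7 with no filter, 7 with median scaling, 22 with quantile normalisation and 20 with the replicate block, and at day 12 the 10 calls became 18 with quantile normalisation and 21 with the block. The cause was not tested. Between 0 and 2 of the 4 knockdown libraries were closest to the control of their own number in each comparison. In *set1* whole worms the block gave 17 calls at day 6 and 49 at day 9. SMED30004569 reversed to -0.46 in *mll1/2* X1 cells at day 12 without the 3 control libraries. The rule found 176 IDs (110 of the members) with a pseudocount of 0.1, 98 (86) with 1, 163 (122) with median scaling and 138 (106) with quantile normalisation. Members with under 10 reads per control library, 29 of 132, limit what can be seen of single transcripts.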
